A study of Coilia nasus with 12 samples.

Results

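The genes described here are the unigenes of the stomach of Coilia nasus, an estuarine anchovy, whose deposited annotation names a pancreatic type of digestive enzyme. They were chosen by annotation text alone: trypsin, chymotrypsin, elastase, carboxypeptidase A or B, pancreatic lipase or triacylglycerol lipase, alpha-amylase, or bile salt-activated lipase, without any entry that says inhibitor. The rule found 53 of the 63567 unigenes in the table, after 7 inhibitor entries were left out of 60 matches. Each library came from the stomach of 1 fish: food intake was the condition of 6 fish, and no food intake that of the other 6. GEO's labels name the source as gastric mucosa and add no strain, age, genotype or drug for either group, and no time since feeding. Values were read from their near-equal column totals as TPM, a level that is set relative to unigene length and to the library's total.

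In vertebrates the acinar cells of the exocrine pancreas make most digestive enzymes of the small intestine and store them as inactive precursors in zymogen granules. Trypsin, once activated in the gut, activates chymotrypsin, elastase and the carboxypeptidases. The stomach makes another set, led by pepsinogens that work in acid. In many bony fish the exocrine pancreas is not a compact organ but is spread in the fat and along the vessels around the stomach, gut and liver.

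The fish-matched enzymes were high in 3 of the 12 libraries, from both groups. Summed over the 34 digestive members whose best match was a fish protein, the level was 1069.6 TPM in food intake 6, 330.4 in food intake 2 and 378.3 in no food intake 6. The other 4 food intake libraries had 39.99 to 93.4 TPM and the other 5 no food intake libraries had 29.7 to 85.3 TPM. These 3 libraries held 78.5% of the summed level of all 12. Of the sum in no food intake 6, 124.8 TPM came from 1 unigene (TRINITY_DN34527_c3_g1), and without it the sums were 1068.8 TPM in food intake 6, 330.1 in food intake 2 and 253.5 in no food intake 6. No member separated the feeding groups.

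**Figure D1:**
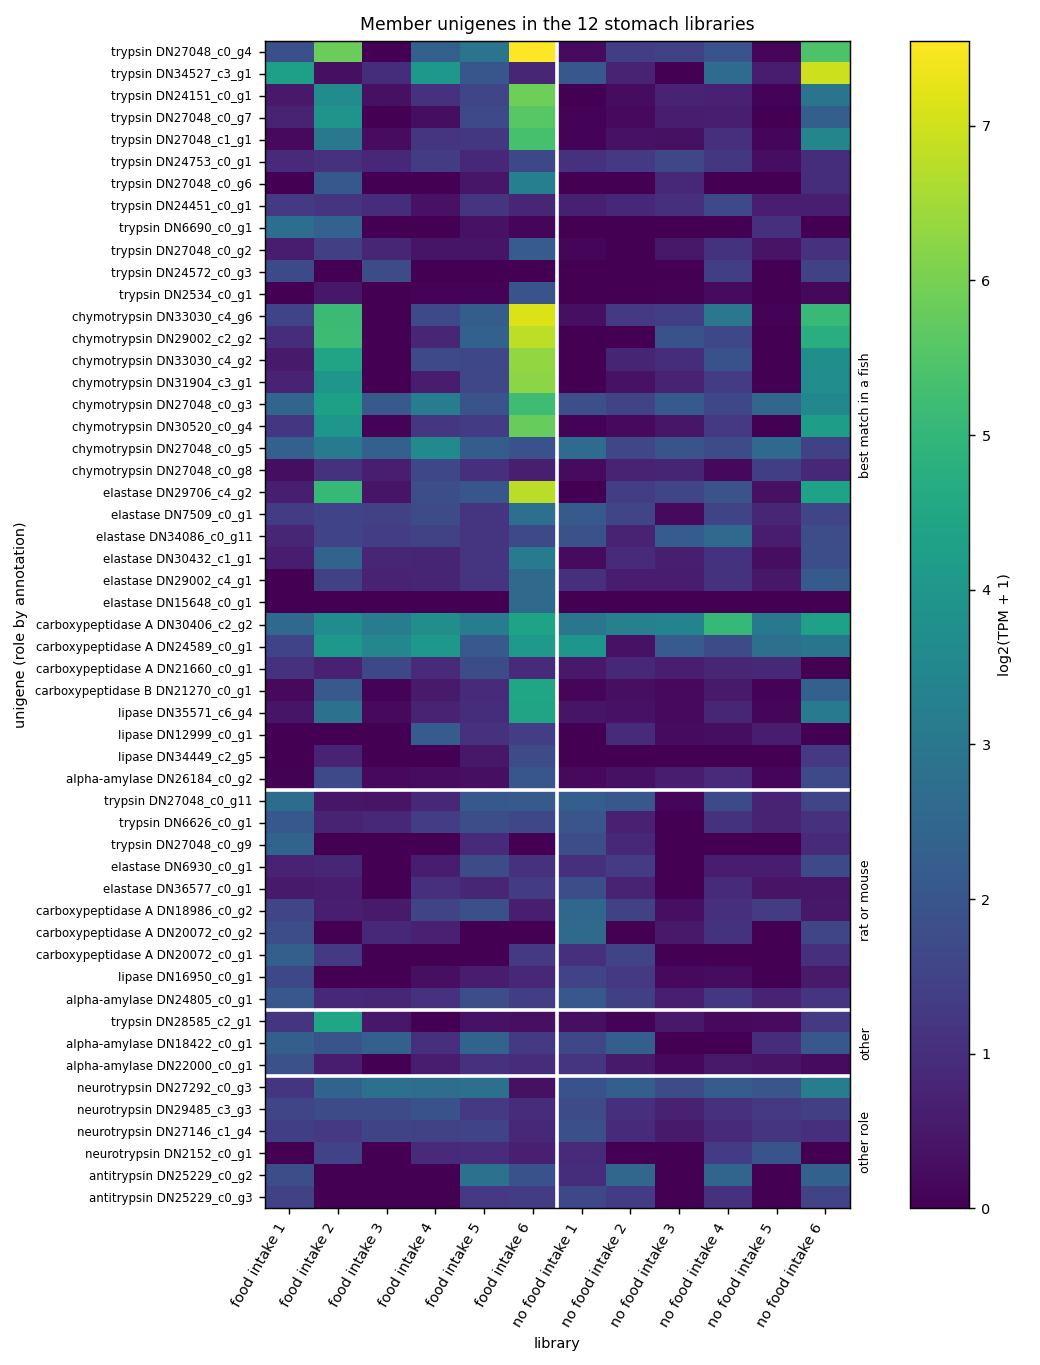
Level of each of the 53 member unigenes (rows, named by role and unigene) in each of the 12 libraries (columns, food intake left of no food intake), as log2(TPM + 1). White lines divide the members by the organism of their best match and set apart the 6 members with another role; bright cells of fish-matched trypsins, chymotrypsins and an elastase stand in food intake 2, food intake 6 and no food intake 6.

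The members were not all digestive enzymes of the fish. By role, 16 were trypsins, 8 chymotrypsins, 8 elastases, 6 carboxypeptidases A, 1 a carboxypeptidase B, 4 lipases and 4 alpha-amylases. The word trypsin also brought in 4 unigenes of neurotrypsin, a protease known from the mammalian nervous system, and 2 of alpha-1-antitrypsin, a plasma protein that blocks elastase and is no enzyme. Of the 47 digestive members, 34 had a fish protein as best match, 10 a rat or mouse protein and 3 another: a lizard trypsin, and a pair of bat alpha-amylase entries whose Swiss-Prot match was a plant enzyme. The files pair the unigenes with names only, so these matches are the deposited ones. Trinity cluster DN27048 alone held 10 members, fish- and rat-matched, and members of 1 assembly cluster can share sequence and reads, so the split of values among them is uncertain.

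Stomach genes were abundant in every library. The list of gastric gland and surface genes (pepsinogens, acidic chitinase, proton pump, mucin and others, 8 of 8 symbols matched) held 37 unigenes. Whatever their match, they summed to 110013 to 384528 TPM with food intake and 59332 to 371288 TPM without. limma called 0 of the 30 tested unigenes of the list, and 1 had an unadjusted p under 0.05. The fish-matched enzymes, at 1069.6 TPM at most, were a small part beside them. Food intake 6 stood apart in another measure: 7 unigenes that follow an rRNA-like sequence took 64.2% of its TPM, with 4.34% to 16.4% for the remaining food intake fish and 6.12% to 26.9% for the no food intake fish. With those 7 unigenes removed and the rest rescaled, the fish-matched sum was 3014 TPM in food intake 6, 397.8 in food intake 2 and 408.2 in no food intake 6, and 34.6 to 98.9 TPM in the other 9. Because of that rRNA-like share, ranks of food intake 6 depend on the scale. Rescaled values are given beside some ranks, and values printed without one are as deposited. In stomach tissue, more enzyme-making cells and more enzyme RNA per cell cannot be told apart.

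**Figure D2:**
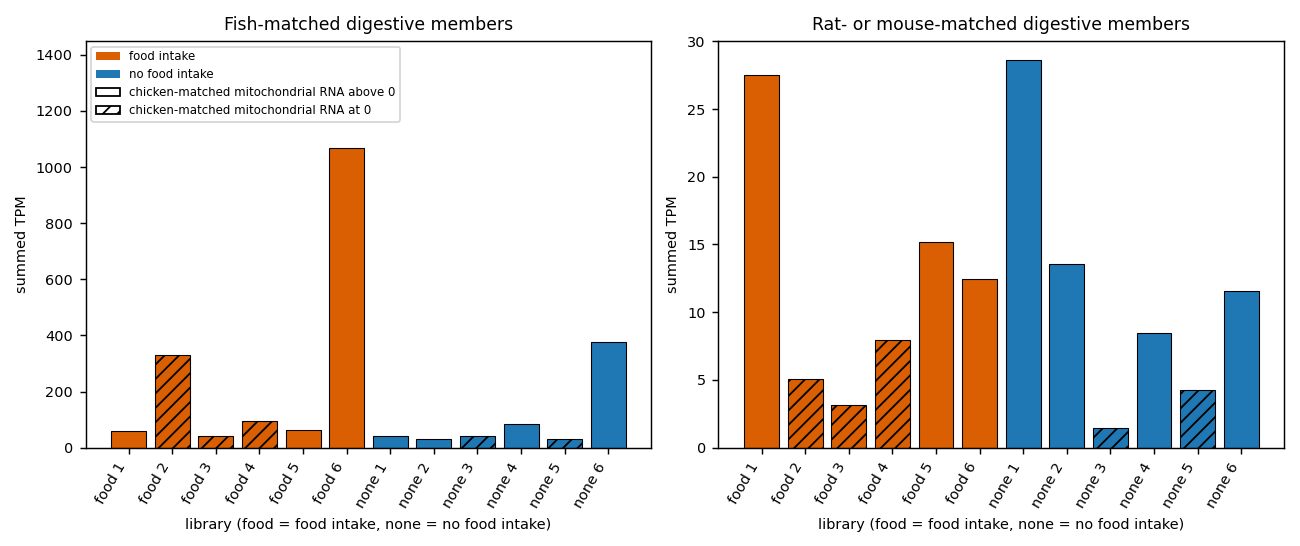
Summed TPM of the 34 fish-matched (left) and 10 rat- or mouse-matched (right) digestive members in each library, with orange bars for food intake and blue bars for no food intake; hatched bars are libraries with chicken-matched mitochondrial RNA at 0. The left panel peaks in food intake 6 at 1069.6 TPM, and the right panel, as deposited, is highest in food intake 1 and no food intake 1, at 27.5 and 28.6 TPM.

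Trypsins head the cascade. The most abundant was a trypsin-2 (TRINITY_DN27048_c0_g4; Swiss-Prot match salmon trypsin-1), which ran between 0 and 186.4 TPM with food intake (median 5.26) and between 0.1 and 42.3 TPM without (median 1.69). It had 186.4 TPM in food intake 6, 56.8 in food intake 2 and 42.3 in no food intake 6, and 6.44 TPM or less in the other 9. Both groups thus held libraries near 0 and libraries far above, and they overlapped. The log2 change, food intake over no food intake, was 1.65 (SE 1.07, limma adjusted p = 0.835). A trypsin-like unigene (TRINITY_DN24151_c0_g1) had 57.5 TPM in food intake 6, 11.5 in food intake 2 and 6.52 in no food intake 6, with 1.99 TPM at most elsewhere. A trypsin-3-like unigene (TRINITY_DN27048_c0_g7) had 46.99, 13.9 and 3.74 TPM in those libraries, and a trypsin-2-like one (TRINITY_DN27048_c1_g1) had 40.1, 7.21 and 10.1 TPM. In all, 5 of the 12 fish-matched trypsins had these 3 libraries as their highest.

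Some other trypsin entries went another way. Trypsinogen-like protein 3 (TRINITY_DN34527_c3_g1), whose Swiss-Prot match was kallikrein-15, had 124.8 TPM in no food intake 6. Its next libraries were food intake 1 at 18.0 TPM and food intake 4 at 15.3 TPM, while it had 0.24 TPM in food intake 2 and 0.77 in food intake 6. The lizard-matched trypsin (TRINITY_DN28585_c2_g1), with a snake venom protease as Swiss-Prot match, had 20.5 TPM in food intake 2 and 1.42 TPM or less in the other libraries. A cationic trypsin-like unigene (TRINITY_DN6690_c0_g1) had 5.69 TPM in food intake 1, 4.23 in food intake 2 and up to 1.04 elsewhere. The other 6 fish-matched trypsins reached at most 8.60 TPM (TRINITY_DN27048_c0_g6, in food intake 6). That unigene did have the 3 libraries highest, with 3.26 TPM in food intake 2, 0.99 in no food intake 6 and 0.84 at most elsewhere. Unigenes that share the name trypsin therefore did not all share a profile over libraries.

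Chymotrypsins cut beside aromatic residues. The 8 fish-matched unigenes together had 500.5 TPM in food intake 6, 146.6 in food intake 2 and 113.9 in no food intake 6. The other libraries had 7.86 to 28.2 TPM with food intake and 7.28 to 19.2 TPM without. In food intake 6 and food intake 2 this sum was above that of the 12 fish-matched trypsins (349.7 and 101.5 TPM), and in no food intake 6 it was below (193.1 TPM). Without TRINITY_DN34527_c3_g1 the trypsins of no food intake 6 summed to 68.3 TPM, and the chymotrypsin sum was the higher one there too. Chymotrypsin B-like (TRINITY_DN33030_c4_g6) led with 0 to 141.6 TPM with food intake (median 2.94) and 0.05 to 32.8 TPM without (median 1.53), a log2 change of 1.10 (SE 1.03, limma adjusted p = 0.888). A chymotrypsin A-like fragment of 235 bases (TRINITY_DN29002_c2_g2) had 111.3 TPM in food intake 6, 35.1 in food intake 2 and 26.1 in no food intake 6. Another chymotrypsin A-like unigene (TRINITY_DN33030_c4_g2) had 79.4, 20.1 and 12.5 TPM in the same libraries. Chymotrypsin-C, which in humans controls trypsinogen activation and breakdown, was the annotation of a further pair. TRINITY_DN31904_c3_g1 had 74.7 TPM in food intake 6, 15.1 in food intake 2 and 11.9 in no food intake 6. TRINITY_DN30520_c0_g4 had 54.6 TPM in food intake 6, 14.8 in food intake 2 and 17.7 in no food intake 6. The Swiss-Prot match of both was the elastase CELA2A.

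Some chymotrypsins were present in every library. CTRL, a chymotrypsin-like protease (TRINITY_DN27048_c0_g3), had 2.88 to 35.7 TPM with food intake (median 6.23) and 1.93 to 10.4 TPM without (median 2.995). Its highest 3 libraries were again food intake 6, food intake 2 and no food intake 6, but the next, food intake 4, had 7.98 TPM. Its log2 change of 0.999 (SE 0.52) had the smallest unadjusted p of the members, 0.0693 (limma adjusted p = 0.803). Chymotrypsin B1 (TRINITY_DN27048_c0_g5) had 2.76 to 11.2 TPM with food intake and 1.75 to 5.24 TPM without. Food intake 6 was the lowest of its group at 2.76 TPM, but not after removal of the rRNA-like unigenes (7.78 TPM, with food intake 5 lowest at 4.03).

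Elastases cut after small residues in elastin and other proteins. Elastase-1-like (TRINITY_DN29706_c4_g2) had 0.34 to 108.8 TPM with food intake (median 2.79) and 0 to 19.98 TPM without (median 1.81). Food intake 6 had 108.8 TPM, food intake 2 had 32.6 and no food intake 6 had 19.98, with 3.06 TPM at most in the other 9 (log2 1.18, SE 0.96, limma adjusted p = 0.867). A CELA2A unigene (TRINITY_DN30432_c1_g1) had the same 3 libraries highest at 7.81, 4.32 and 2.55 TPM, and a short one of 217 bases (TRINITY_DN15648_c0_g1) was listed at 5.12 TPM in food intake 6 and at 0 in the other 11. The fish-matched Cela3b unigenes were flatter as deposited: TRINITY_DN34086_c0_g11 had 0.77 to 2.18 TPM with food intake and 0.53 to 5.03 TPM without. TRINITY_DN7509_c0_g1 had 1.21 to 5.73 TPM with food intake and 0.14 to 3.43 TPM without. After removal of the rRNA-like unigenes food intake 6 was highest in both. TRINITY_DN34086_c0_g11 then had 6.14 TPM there, with no food intake 4 next at 5.75. TRINITY_DN7509_c0_g1 had 16.1 TPM there, with no food intake 1 next at 3.70.

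**Figure D3:**
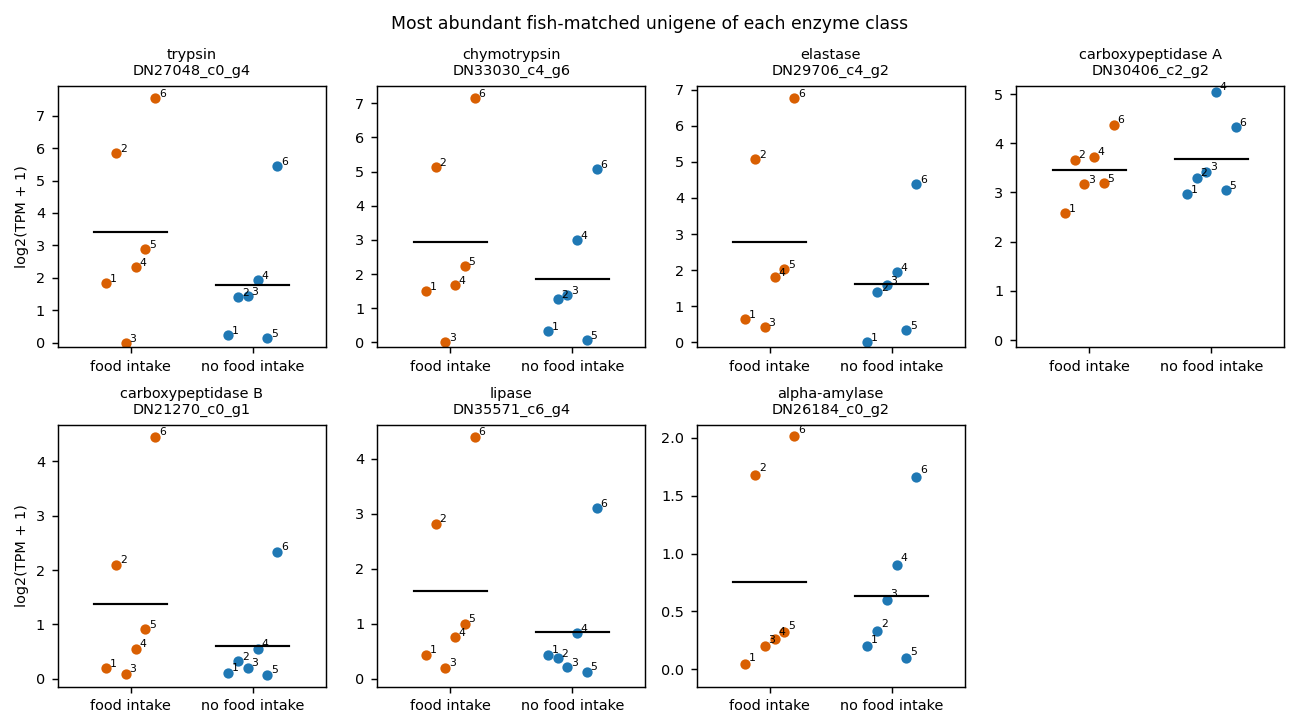
The most abundant fish-matched unigene of each enzyme class as log2(TPM + 1), food intake (orange) left of no food intake (blue), with points numbered by library and a line at the group mean of 6. Libraries 2 and 6 of food intake and 6 of no food intake lie above the others in the panels except carboxypeptidase A, where no food intake 4 is highest on this deposited scale.

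Carboxypeptidases trim residues from the ends of peptides. Carboxypeptidase B (TRINITY_DN21270_c0_g1) had 20.9 TPM in food intake 6, 3.28 in food intake 2, 4.06 in no food intake 6 and 0.88 TPM or less elsewhere. Carboxypeptidase A2-like (TRINITY_DN30406_c2_g2) was instead above 4.9 TPM in all 12 libraries, with 4.96 to 19.8 TPM with food intake (median 9.92) and 6.79 to 32.0 TPM without (median 9.26). Its highest library was no food intake 4 at 32.0 TPM, and after removal of the rRNA-like unigenes food intake 6 at 55.8 TPM. The deposited values of the groups overlapped across most of their range (log2 -0.23, SE 0.40, limma adjusted p = 0.952). Carboxypeptidase A1 (TRINITY_DN24589_c0_g1) had 1.84 to 16.1 TPM with food intake (median 12.8) and 0.29 to 14.5 TPM without (median 4.69). Food intake 6, 2 and 4 lay at 16.1, 15.4 and 15.2 TPM and no food intake 1 at 14.5 TPM. As deposited, the 3 libraries thus did not stand apart in carboxypeptidase A1 (log2 0.89, SE 0.56, limma adjusted p = 0.827). After removal of the rRNA-like unigenes food intake 6 had 45.5 TPM, with food intake 2 at 18.5, food intake 4 at 16.1 and no food intake 6 at 7.23.

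Lipases and amylase were scarce. Bile salt-activated lipase, which splits esters of cholesterol and other lipids once bile salts are present (TRINITY_DN35571_c6_g4), had 20.1 TPM in food intake 6, 6.05 in food intake 2 and 7.56 in no food intake 6, against 0.99 TPM or less in the other 9. The only member with a pancreatic lipase annotation was an inactive lipase-related protein 1-like fragment of 359 bases (TRINITY_DN12999_c0_g1), at 0 to 3.55 TPM with food intake and 0 to 0.91 TPM without. Pancreatic alpha-amylase with a smelt protein as best match (TRINITY_DN26184_c0_g2), which splits starch, had 3.03 TPM in food intake 6, 2.20 in food intake 2, 2.17 in no food intake 6 and 0.87 TPM or less elsewhere. On this per-length scale the leading proteases of food intake 6 stood above its lipases and amylase. The more abundant of the bat-matched amylase entries (TRINITY_DN18422_c0_g1, 208 bases) had 1.02 to 4.28 TPM with food intake and 0 to 3.87 TPM without.

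Counted over all members, 18 of 53 (34.0%) had food intake 2, food intake 6 and no food intake 6 as their highest libraries, against 118 of all 63567 unigenes (0.186%). These 3 libraries were picked out after the members' values were seen, so the count is a description with no test. All 18 had a fish match, out of 34: 5 of 12 trypsins, 6 of 8 chymotrypsins, 3 of 6 elastases, 1 of 1 carboxypeptidase B, 2 of 3 lipases and 1 of 1 amylase, but 0 of 3 carboxypeptidases A. Food intake 6 was the highest library for all 18, and in 12 the order was food intake 6, food intake 2, no food intake 6. The level in food intake 6 was 3.36 times that in food intake 2 at the median (range 1.38 to 6.37) and 4.29 times that in no food intake 6 (range 1.40 to 12.6). After removal of the rRNA-like unigenes 17 of the 18 still had these libraries highest, against 300 of all unigenes (0.472%), and the median ratios were 7.86 to food intake 2 and 11.2 to no food intake 6. On the deposited scale the 3 libraries held a median 92.2% of the summed TPM of each of these 18 (range 62.3% to 94.7%). The 18 were picked because these libraries were their highest, so that share does not describe the other members.

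**Figure D4:**
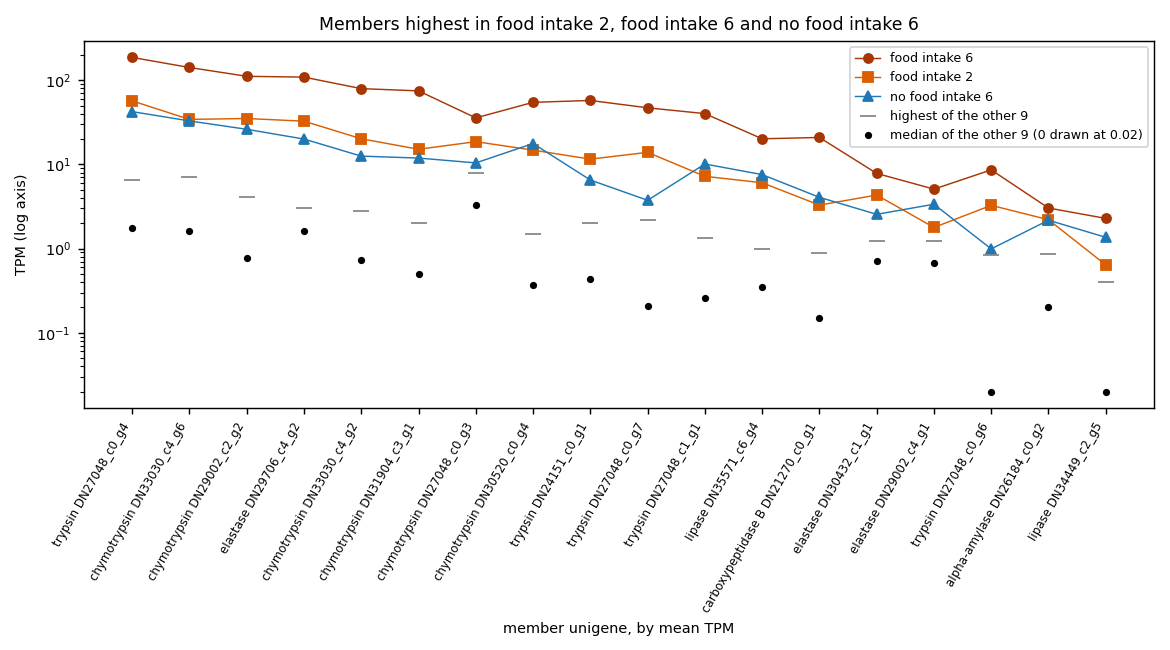
TPM on a log axis of the 18 members whose highest libraries were food intake 6, food intake 2 (brown circles and orange squares) and no food intake 6 (blue triangles), with the highest (grey dash) and median (black dot) of the other 9 libraries; members run by mean TPM. Food intake 6 lies above the others throughout, and the orange and blue lines cross.

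Over all unigenes, 24 had each of these 3 libraries at more than 2 times every other one, with a mean of at least 1 TPM. Of these, 12 were members and 10 were other annotated unigenes, chosen here after their values were seen. Syncollin (TRINITY_DN35996_c0_g1), a protein of the zymogen granule membrane in mammals, had 19.8 TPM in food intake 6, 4.64 in food intake 2 and 7.65 in no food intake 6, with 1.71 TPM at most elsewhere. Deoxyribonuclease-1-like (dnase1, TRINITY_DN35437_c3_g8), an enzyme that cuts DNA, had 9.94, 4.03 and 3.90 TPM there. The most abundant was a CD59 glycoprotein-like unigene (TRINITY_DN35107_c3_g3) at 115.3, 29.9 and 22.1 TPM. The others were annotated as hemagglutinin/amebocyte aggregation factor-like, apolipoprotein D-like, low choriolytic enzyme-like, natterin-3-like, a pair of perforin-1-like fragments and endou. After removal of the rRNA-like unigenes and rescaling, 32 unigenes had the 3 libraries at more than 2 times every other one, 12 of them members.

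The other exocrine pancreas genes had several profiles. Of 13 symbols, 8 were matched outside the members, in 13 unigenes, and 1 of these, syncollin, had the 3 libraries highest. PLA2G1B, the pancreatic type of phospholipase A2 (TRINITY_DN34979_c0_g2), was far more abundant than any member, at 117 to 20416 TPM with food intake and 643 to 14309 TPM without, and was highest in food intake 5. Both other fish-matched PLA2G1B unigenes were highest in food intake 6. TRINITY_DN4412_c0_g1 had 7.11 TPM there, 5.11 in no food intake 3, 2.91 in food intake 2 and 2.51 in no food intake 6. TRINITY_DN17288_c0_g1 had 3.97 TPM in food intake 6 and 0.96 TPM or less elsewhere. The acinar transcription factor ptf1a (TRINITY_DN7279_c0_g1) had 0.55 to 2.51 TPM with food intake and 1.24 to 5.88 TPM without, and food intake 6 was its lowest library only on the deposited scale (1.55 TPM after removal of the rRNA-like unigenes, with food intake 5 at 0.95). BHLHA15 (TRINITY_DN25200_c0_g1), which shapes secretory cells in mammals, had 1.49 TPM in food intake 6, 5.52 in food intake 2 and 6.01 in no food intake 6. Rat-matched colipase, the cofactor of pancreatic lipase, had 9.68 TPM in food intake 4, 9.18 in no food intake 5 and 2.68 in food intake 6, and after the rescaling no food intake 5 was highest at 12.6 TPM. Of the 8 tested unigenes of this list limma called 0, and 0 had an unadjusted p under 0.05 (median log2 0.35).

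Insulin, the product of the pancreatic beta cell, was high in 1 library. The ins unigene (TRINITY_DN6088_c0_g1) had 156.0 TPM in food intake 2 and 0.36 TPM or less in the other 11, with 0 in food intake 6 and 0.12 in no food intake 6. The other endocrine genes did not share that peak: pdx1 (TRINITY_DN24788_c0_g1), a transcription factor of pancreas and foregut, had 11.5 TPM in food intake 2 within a food intake range of 4.17 to 17.5, against 7.71 to 19.0 TPM without food intake. Of the symbols fixed for endocrine cells, gcg, sst, iapp and pcsk2 were not matched. limma called 0 of the 4 tested unigenes of the list, with 0 at unadjusted p under 0.05 (median log2 -0.02).

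**Figure D5:**
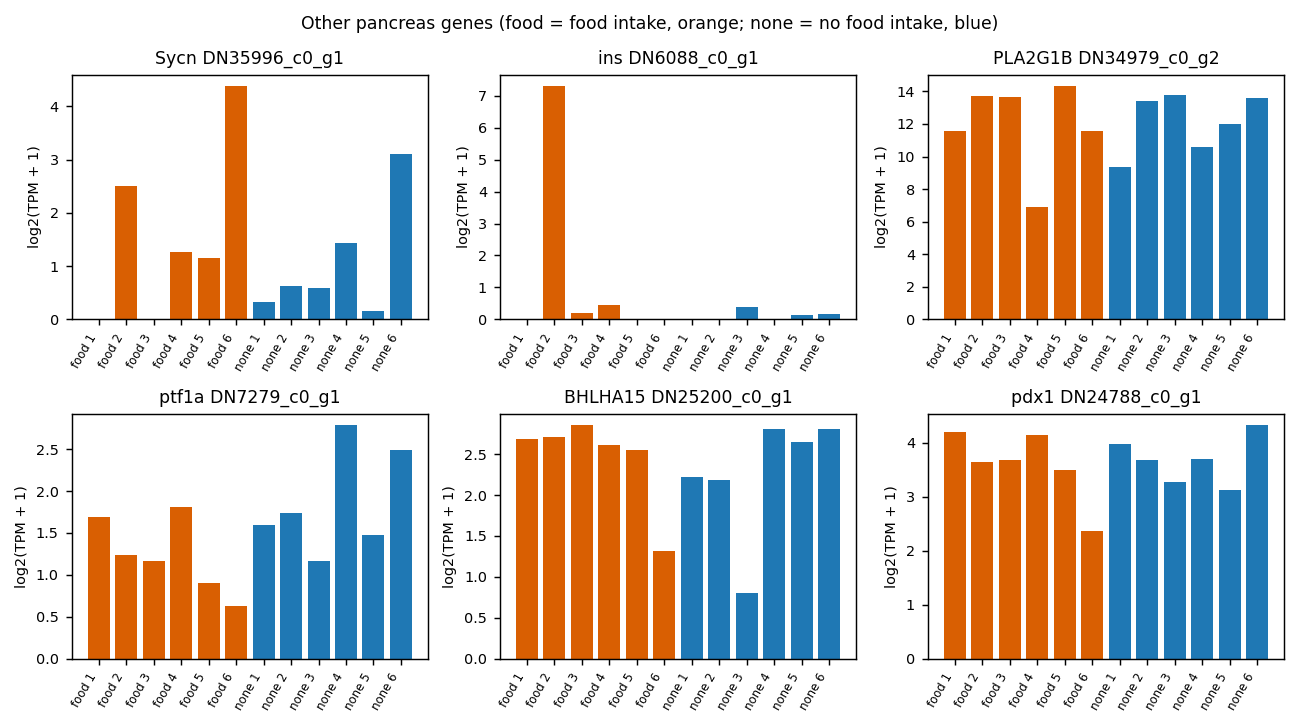
log2(TPM + 1) of 6 pancreas genes that are not members, in each library, food intake (orange) left of no food intake (blue). Sycn peaks in food intake 6 at 19.8 TPM, ins in food intake 2 at 156.0 TPM, and this PLA2G1B unigene, ptf1a, BHLHA15 and pdx1 show neither profile.

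Markers of neighbouring organs did not peak in the 3 libraries together. The intestine list (26 unigenes) summed to 46.4 TPM in food intake 6, the lowest food intake library, with 319 TPM at most with food intake and 152 to 339.1 TPM without. Much of that sum came from unigenes annotated as villin-like protein: TRINITY_DN33063_c1_g1, TRINITY_DN29099_c0_g3 and TRINITY_DN34448_c6_g4, at means of 54.0, 48.4 and 46.5 TPM. The liver list (11 unigenes) had 6.93 to 19.8 TPM with food intake and 8.61 to 15.02 TPM without. Its albumin unigene was mouse-matched. The blood and granulocyte list (9 unigenes) had 103 to 620.3 TPM with food intake and 88.6 to 746.2 TPM without. In that list food intake 6 held 620.3 TPM and no food intake 3 held 746.2 TPM, against 141.8 TPM in food intake 2 and 124.6 TPM in no food intake 6. After the rescaling food intake 6 was the highest for that list at 1748 TPM, and it remained the lowest food intake library for the intestine list at 131 TPM. For the liver list it was then highest at 21.2 TPM, with food intake 4 at 20.9 and no food intake 3 at 20.8. None of these 3 lists had a unigene with the 3 libraries highest, and their part in the enzyme levels was not tested. limma called 0 of their tested unigenes (12 of intestine, 5 of liver, 7 of blood), with 0 at unadjusted p under 0.05 and median log2 changes of 0.04, -0.25 and -0.15 in that order of lists.

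Activation and control genes were at low level. From the list of 8 symbols for zymogen activation and control, 5 were matched in 8 unigenes, summing to 9.39 to 27.5 TPM with food intake and 14.2 to 26.0 TPM without. Much of that sum came from a unigene named Prss8 but annotated as serine protease 27-like (TRINITY_DN30445_c4_g1, mean 9.46 TPM). The symbol spink1 was among those not matched. Enteropeptidase, the intestinal protease that activates trypsinogen, was present as a rat-matched fragment of 212 bases (Tmprss15), at 0 to 3.89 TPM with food intake and 0 to 3.73 TPM without. F2RL1, the receptor that trypsin cleaves and activates (TRINITY_DN24861_c0_g2), had 1.64 to 8.62 TPM with food intake and 2.86 to 6.52 TPM without. limma called 0 of the 3 tested unigenes of the list, and 0 had an unadjusted p under 0.05 (median log2 0.08).

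The 10 digestive members with a rat or mouse match differed in profile from the fish-matched ones. Their sum ran from 3.14 to 27.5 TPM with food intake (mean 11.9 ± 8.87) and from 1.49 to 28.6 TPM without (mean 11.3 ± 9.58; SD, n = 6 each). It followed a division of the libraries that crosses the feeding groups: 7 libraries, those numbered 1, 5 and 6 with food intake and 1, 2, 4 and 6 without, held chicken-matched mitochondrial unigenes above 0, and the other 5 held them at 0. The rodent-matched sum was 8.44 to 28.6 TPM in those 7 and 1.49 to 7.95 TPM in the other 5, with no overlap but a narrow gap. How many of all unigenes divide the libraries in this way was not counted. After the rescaling it was highest in food intake 6 at 35.0 TPM, with food intake 1 at 33.3 and no food intake 1 at 30.9. Those 7 libraries then had 9.64 TPM or more and the other 5 had 8.42 TPM or less. The rescaled group means were 17.2 TPM with food intake and 12.8 TPM without. The rat-matched anionic trypsin (TRINITY_DN27048_c0_g11) had 1.99 to 5.35 TPM in the 7 libraries and 0.83 TPM at most in the others. Both mouse-matched alpha-1-antitrypsin unigenes were above 0 in all 7 and at 0 in all 5. Not every rodent-matched member followed the division. Rat-matched carboxypeptidase A2 (TRINITY_DN18986_c0_g2) had 1.95 TPM in food intake 4 and 1.48 in no food intake 5, both of the 5, against 0.54 in food intake 6 and 0.40 in no food intake 6, both of the 7. Its group ranges were 0.47 to 2.57 TPM with food intake and 0.25 to 4.72 TPM without. Rat-matched pancreatic amylase (TRINITY_DN24805_c0_g1) had 0.74 to 3.11 TPM with food intake and 0.56 to 3.10 TPM without. This amylase did follow the division, with 1.18 to 3.11 TPM in the 7 and 0.56 to 1.12 TPM in the 5. Rat-matched bile salt-activated lipase (TRINITY_DN16950_c0_g1) reached 2.10 TPM with food intake and 1.87 TPM without. For 0 of the 10 was food intake 6 the highest library as deposited, and for 5 after the rescaling. Neurotrypsin, outside digestion, showed neither profile: its most abundant unigene (TRINITY_DN27292_c0_g3) had 0.27 to 5.93 TPM with food intake, lowest in food intake 6 on both scales, and 2.35 to 8.07 TPM without. The fish-matched sum did not follow the division, since food intake 2 belongs to the 5 and food intake 6 and no food intake 6 to the 7. Rodent-matched unigenes outside the members went both ways. Rat-matched gastricsin (Pgc, TRINITY_DN25717_c0_g6) had 94.0 to 217.9 TPM in the 5 and 29.7 to 77.5 TPM in the 7. Rat-matched Pla2g1b (TRINITY_DN27895_c1_g4) had 30.2 to 84.75 TPM in the 5 and 11.5 to 30.7 TPM in the 7. Mouse-matched albumin (TRINITY_DN31173_c0_g3) was above 0 in all 7 and at 0 in all 5. Mouse-matched transthyretin (Ttr, TRINITY_DN2747_c0_g1) had 0.88 to 2.53 TPM in the 7, but also 0.61 TPM in food intake 3, of the 5.

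The feeding comparison asks whether stomach transcripts of these enzymes differ between fish that had and had not taken food. limma was run over the 40142 unigenes that were at 1 TPM or above in 6 or more libraries, 28 of the 53 members among them, on the scale log2(TPM + 1), which understates changes of low levels. Carboxypeptidase B and bile salt-activated lipase, high in few libraries, did not reach that minimum. Nor did the trypsins TRINITY_DN24151_c0_g1 and TRINITY_DN27048_c0_g7 or the chymotrypsin-C TRINITY_DN31904_c3_g1. Of the 18 members with food intake 2, food intake 6 and no food intake 6 highest, 9 were tested. limma called 0 of the 28 higher and 0 lower at adjusted p under 0.05, where it called 0% of all tested unigenes. At unadjusted p under 0.05 it also had 0 of 28, against 6.27% of all tested unigenes (2.48% higher, 3.79% lower). In 0 of the 53 were the groups apart without overlap, against 0.167% of the tested unigenes.

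More members had a higher than a lower value with food intake, with 0 past the test. Of the 28 tested, 21 had a positive log2 change (75%), with a median of 0.31, against 46.0% positive and a median of -0.04 over all tested unigenes. Of the 30 tested unigenes of the gastric list 25 were positive, with a median log2 change of 0.53. Over all 53, the non-digestive entries included, the food intake median was higher for 41, lower for 10 and equal for 2. No such count of medians was made over all unigenes, and the members share the same libraries, so they are not independent. The fish-matched sum averaged 276.0 ± 403 TPM with food intake and 101.6 ± 137 TPM without (SD, n = 6 each), so each SD exceeded its mean. After removal of the rRNA-like unigenes and rescaling the means were 616.5 TPM with food intake and 114.7 TPM without. Without food intake 6 the food intake mean was 117 TPM, and without no food intake 6 the no food intake mean was 46.3 TPM. Without food intake 2, food intake 6 and no food intake 6 together, an omission chosen after seeing the data, the means were 64.0 ± 22.2 TPM with food intake (n = 4) and 46.3 ± 22.7 TPM without (n = 5). Within the 7 libraries with chicken-matched RNA the means were 397.4 TPM with food intake (n = 3) and 134.1 TPM without (n = 4). Within the other 5 they were 154.6 TPM with food intake (n = 3) and 36.8 TPM without (n = 2). Single libraries weigh heavily in these means. The 7 include food intake 6 (1069.6 TPM) and no food intake 6 (378.3 TPM), and the 5 include food intake 2 (330.4 TPM).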

How the data were processed

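RNA of 12 individual stomachs was sequenced as Illumina libraries, per the labels' protocols, and the submitters' processing notes name cutadapt and FastQC. Trinity identifiers in the file show assembly without a genome. The deposited values were read as TPM from the column totals of 984119 to 992092; the sources used here name no quantifier or unigene filter. TPM keeps no depth, so the scatter among fish is the only gauge of precision. All sample columns matched the labels (0 unmatched).

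limma (3.58.1, R 4.3.3) with trend used log2(TPM + 1) of those unigenes that reach 1 TPM in 6 or more libraries, with Benjamini-Hochberg adjustment over all of them (threshold 0.05). It was tested on simulated data in which changed unigenes were shifted in every food intake library. Unigenes high in only a few libraries, as many members were, were not simulated. Changes are signed as food intake minus no food intake on the log2 scale. Tables and figures used Python 3.11.15. The members, the gene lists (exocrine and endocrine pancreas, zymogen activation and control, intestine, liver, gastric gland and surface, blood and granulocytes; matched by symbol, members excluded) and the tests were chosen with earlier results of these data known. Named were up to 3 members per class by mean TPM (at least 0.5), members at unadjusted p under 0.05 and members whose highest library was at 10 TPM or more and 10 times the median of the others; that rule counts chymotrypsin-like elastases as chymotrypsins. Other members were named after their values were seen. The organism of the best match is that in the annotation, or in the Swiss-Prot match where the annotation names none; grouping by it followed a look at the values. The rRNA-like unigenes had a mean of at least 1000 TPM and a correlation of 0.95 or more with the unigene named ART2. Alternatives were quantile normalization, a pseudocount of 0.1, no trend, a filter at 5 TPM or none, a replicate block, the library division as a term or each side alone, rescaling without rRNA-like unigenes, a narrower member rule and each library left out. Omission of 3 libraries was added after seeing the data.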

Additional observations from a re-analysis of the deposited data

Results flagged for a closer look

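Among the named members, their sums, syncollin and insulin, 1 library stood far from the other 5 of its group in 36 of the 56 groups examined. These counts cannot be set against the 1 in 20 groups that chance flags: 28 of the 36 belong to the 15 members named because 1 library was far above the others, and the members share libraries. The 8 members named for abundance alone gave 1, and the sums, syncollin and insulin gave 7. The library that stood apart was no food intake 6 in 18 groups, food intake 6 in 15, food intake 2 in 2 and no food intake 1 in 1.

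In food intake 6 the outlying levels were 186.4 TPM for TRINITY_DN27048_c0_g4, 57.5 for TRINITY_DN24151_c0_g1, 46.99 for TRINITY_DN27048_c0_g7 and 40.1 for TRINITY_DN27048_c1_g1 among trypsins. Among chymotrypsins they were 141.6 TPM for TRINITY_DN33030_c4_g6, 111.3 for TRINITY_DN29002_c2_g2, 79.4 for TRINITY_DN33030_c4_g2, 74.7 for TRINITY_DN31904_c3_g1 and 54.6 for TRINITY_DN30520_c0_g4. The elastase TRINITY_DN29706_c4_g2 stood at 108.8 TPM, carboxypeptidase B at 20.9, bile salt-activated lipase at 20.1 and syncollin at 19.8. The sum of all members was 1091.5 TPM and that of the fish-matched digestive members 1069.6 TPM.

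In no food intake 6 the same trypsins stood at 42.3, 6.52, 3.74 and 10.1 TPM and the same chymotrypsins at 32.8, 26.1, 12.5, 11.9 and 17.7 TPM, in the same order, with CTRL at 10.4 TPM. The elastase had 19.98 TPM, carboxypeptidase B 4.06, bile salt-activated lipase 7.56 and syncollin 7.65. Trypsinogen-like protein 3 had 124.8 TPM and the lizard-matched trypsin 1.42 TPM there. The sums were 411.3 TPM for all members and 378.3 TPM for the fish-matched ones. In food intake 2 the lizard-matched trypsin had 20.5 TPM and insulin 156.0 TPM. In no food intake 1 the rat-matched carboxypeptidase A2 (TRINITY_DN18986_c0_g2) had 4.72 TPM. Whether these libraries held pancreatic tissue was not tested.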

How the results depend on the processing

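No member passed adjusted p under 0.05 in limma under any of the 23 other settings (smallest adjusted p = 0.439). Members at unadjusted p under 0.05 numbered 6 with the replicate block, 2 in the 5 libraries without chicken-matched RNA alone, 1 after rescaling without the rRNA-like unigenes, 1 without food intake 2, food intake 6 and no food intake 6, and 0 to 3 with single libraries left out (3 without no food intake 6), all of them higher with food intake. These counts are out of 28 members. Over all 40142 unigenes with the replicate block, limma had 994 higher and 1438 lower at that level. It had 1958 higher and 592 lower in the 5 libraries, and 2279 higher and 1014 lower after rescaling. Without the 3 libraries it had 3179 higher and 940 lower, and without no food intake 6 it had 1069 higher and 1186 lower. The replicate numbers did not pair the libraries (correlations of same-numbered libraries from -0.10 to 0.11, and 0 of 6 closest to their own number). Over all unigenes limma called 2 with quantile normalization, 1 after rescaling, 1 without the 3 libraries and 0 to 1 with single libraries left out (1 without no food intake 4). As reported, the median log2 change was 0.31 for the members and -0.04 for all tested unigenes. Rescaling moved the median of all unigenes to 0.06, and that of the members to 0.43. Leaving out single libraries gave members' medians of 0.16 to 0.44. The 5 libraries alone gave 0.74 for the members and 0.18 for all tested unigenes. A pseudocount of 0.1 gave 0.52 for the members and -0.07 for all tested unigenes.

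Of the 14 named members tested, 10 kept their sign throughout. Trypsinogen-like protein 3 turned positive with a pseudocount of 0.1 (0.25), the library division as a term (0.17), the 5 libraries alone (1.48), rescaling (0.042) and without the 3 libraries (1.61), and ranged from -0.53 to 0.86 with single libraries left out. Rat-matched carboxypeptidase A2 turned to 0.027, 0.10, 0.023 and 0.056 with the division as a term, the 5 libraries alone, rescaling and without the 3 libraries, and ranged from -0.23 to 0.21. Fish carboxypeptidase A2-like turned to 0.28 in the 5 libraries alone and ranged from -0.42 to 0.039, and rat-matched amylase ranged from -0.017 to 0.29. The cause was not tested. TPM gives no depth, so levels near 0 have unknown precision.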
